A study of Mus musculus with 6 samples.

Results

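The ubiquitin-proteasome genes described here are those whose symbols mark them as subunits or partners of the proteasome (Psma to Psmg), ubiquitin-activating enzymes (Uba), ubiquitin-conjugating enzymes and ligases named Ube, ubiquitin-specific proteases (Usp), deubiquitinases of the Uch and Otu families, cullins (Cul) or F-box proteins (Fbx). They were picked by the pattern of the symbol, with Usp9x and Usp9y left out. The pattern uses no measured value, but it was set with earlier results of these data known. They took 279 of the 21888 probes on the array and 146 of the 11023 genes with a probe of their own. Of these, 66 probes of 31 genes belong to the proteasome group and 213 probes of 115 genes to the ubiquitin enzymes. The pattern also takes in Fbxl12os and Ube4bos3, which are transcripts of the opposite strand, the pseudogene Ube2d-ps, and the genes Psme3ip1 and Ube2cbp, which are named after a proteasome activator or an E2 enzyme.

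Each of 6 spotted arrays with 2 channels compared RNA from the e12.5 pancreas of Sox4-/- mouse embryos, in channel 2, with RNA from the e12.5 pancreas of their wild-type littermates, in channel 1. Sox4 encodes a SoxC transcription factor, and at this age, embryonic day 12.5, the pancreas is a bud of branching epithelium in mesenchyme. The stated aim was to find the expression changes, over the whole genome, that go with the loss of Sox4. The labels of arrays 1 and 2 say that pancreases were pooled into 2 groups before RNA isolation, that the RNA was amplified and that labelling was indirect, so the 6 arrays may repeat 1 pool of each genotype, and p-values measure only how arrays vary, possibly for technical reasons. The deposited value is 1 log2 ratio per probe and array. It is read as the RNA labelled knockout over the RNA labelled wild type, which is only likely: the titles and the stated aim set the knockout against wild type, but the sources used here give neither dyes nor direction. The channels were never swapped, per the labels, so dye bias and RNA difference cannot be told apart for any probe. In these whole-organ samples, fewer cells of a type and less RNA per cell cannot be told apart either.

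Proteins are marked for destruction by a chain of enzymes. An E1 enzyme activates ubiquitin, an E2 enzyme carries it, and an E3 ligase places it on the substrate. The cullins are the scaffolds of the largest class of ligases, and F-box proteins bring the substrate to those built on Cul1. Deubiquitinases take ubiquitin off again, and the 26S proteasome, a 20S barrel of alpha and beta subunits capped by a 19S particle of ATPase and non-ATPase subunits, unfolds and cuts the marked protein. In the embryonic pancreas this machinery is best known for the turnover of cell-cycle proteins and of the short-lived transcription factors of endocrine progenitors.

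Of the 279 probes, 272 probes of 142 genes had a value on at least 4 arrays and were tested. The 7 that did not included the single probes of Cul3, the scaffold of a ligase family of its own, and of Usp18, the protease that removes the ubiquitin-like protein ISG15. Cul3 was measured on array 4 only, at 0.28, and Usp18 at -0.20, 0.43 and 0.01 on arrays 2, 3 and 4. The other 5 were probes of Psmd5, Ube2s, Fbxo28, Fbxo31 and Fbxo4, of which Fbxo31 and Fbxo4 had no other probe. In limma's test with Benjamini-Hochberg adjustment over all probes, 15 of the 272 probes passed an adjusted p of 0.05, which is 5.51%, against 5.49% of all 21247 tested probes. A ratio above 0 was called for 5 of them (1.84%, against 1.96% of all probes) and a ratio under 0 for 10 (3.68%, against 3.53%). By gene, 12 of 142 had at least 1 called probe (8.45%, against 8.21% of all genes tested). The share of ubiquitin-proteasome probes called was thus close to that of the whole array, and at an unadjusted p under 0.05 it was too, 27.2% against 27.6%.

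The split between the directions depends on the centring. Without it, or with quantile normalization, 15 or 18 of the genes' probes were called above 0 and 8 or 9 under 0. Among all probes, 35.7% of the calls were above 0 after centring, 67.5% without it and 72.6% with quantile normalization. The median of all probes was 0.13 with both, against 0.03 after centring, so the values below are relative to the median of each array. Every one of the 15 called probes had the same sign on every array that measured it, which a call from these same values favours. None passed in each of the 6 fits that leave out 1 array: without array 2, 9 of the 15 passed, and without array 1, 3, 4, 5 or 6 none did, while the share of all probes called was 4.0% without array 2 and 0.0377% to 0.151% without another array.

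**Figure D1:**
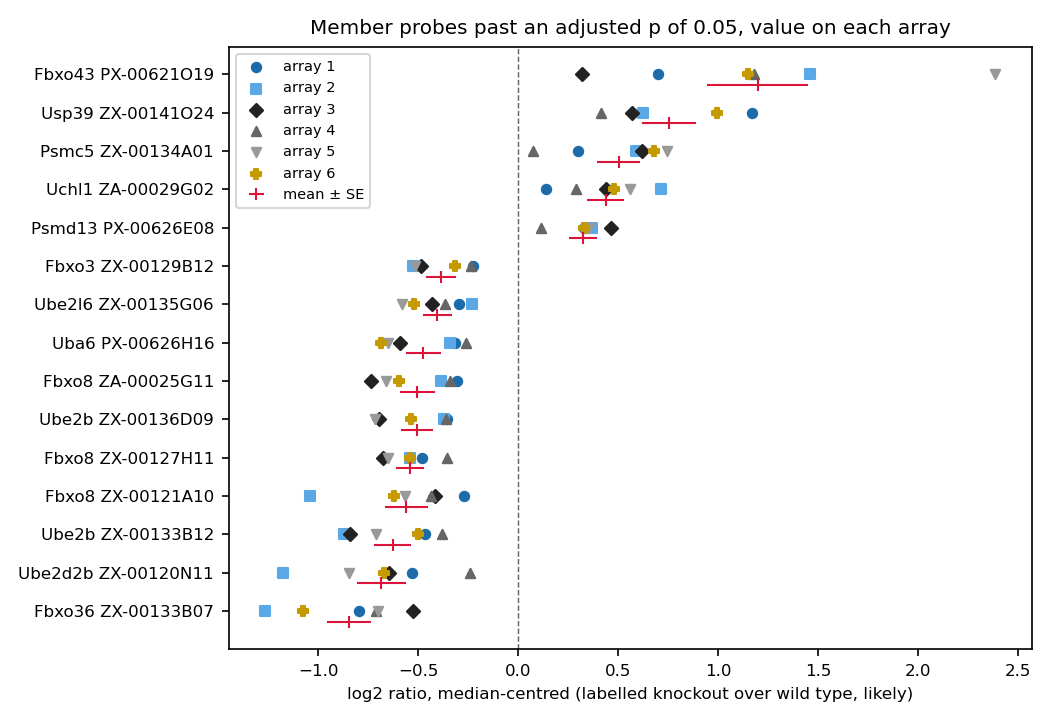
The log2 ratio on each of the 6 arrays (symbols) for the 15 probes with an adjusted p under 0.05, with the mean and its limma standard error drawn in red just below. The 5 probes above 0 and the 10 under 0 kept their side on every array that measured them, which a call from these same values favours. Fbxo43 spread over the widest range, from 0.32 to 2.39.

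Promoters of 4 of the called genes are shown as the 250 bases before the transcription start in RefSeq (GRCm38.p6). Fbxo36 and Ube2b are shown because they are the called genes whose windows hold the core of a Sox binding site, and Fbxo8 and Psmc5 because they are an F-box gene with 3 called probes and the called proteasome subunit furthest above 0, with no such core. The Sox core was searched as ACAAAG or ACAATG on both strands, and capitals mark it as it reads on the strand shown. The windows are chr1:84839591-84839840 on the plus strand for Fbxo36, chr11:52000787-52001036 on the minus strand for Ube2b (1 of its 2 windows), chr8:56550904-56551153 on the plus strand for Fbxo8 and chr11:106255935-106256184 on the plus strand for Psmc5.
Fbxo36: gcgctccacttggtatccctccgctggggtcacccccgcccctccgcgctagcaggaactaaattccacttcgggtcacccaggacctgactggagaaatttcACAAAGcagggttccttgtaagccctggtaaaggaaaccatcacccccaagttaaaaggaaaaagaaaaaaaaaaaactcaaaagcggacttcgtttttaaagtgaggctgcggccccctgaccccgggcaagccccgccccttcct
Ube2b: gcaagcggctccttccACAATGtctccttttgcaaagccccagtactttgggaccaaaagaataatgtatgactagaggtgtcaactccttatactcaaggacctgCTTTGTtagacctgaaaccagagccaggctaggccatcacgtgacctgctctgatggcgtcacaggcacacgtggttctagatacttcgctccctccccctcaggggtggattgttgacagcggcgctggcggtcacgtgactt
Fbxo8: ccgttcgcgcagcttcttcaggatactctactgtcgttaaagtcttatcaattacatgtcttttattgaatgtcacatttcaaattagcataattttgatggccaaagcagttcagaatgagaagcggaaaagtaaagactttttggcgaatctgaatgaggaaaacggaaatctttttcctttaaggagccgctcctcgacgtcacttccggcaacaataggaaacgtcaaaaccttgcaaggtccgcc
Psmc5: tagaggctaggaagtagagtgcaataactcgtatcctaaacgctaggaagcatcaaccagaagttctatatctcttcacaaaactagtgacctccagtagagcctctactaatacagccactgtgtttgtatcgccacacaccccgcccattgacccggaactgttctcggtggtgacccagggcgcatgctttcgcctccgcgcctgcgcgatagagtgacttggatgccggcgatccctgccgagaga
The core starts 147 bases before the transcription start in Fbxo36, and 234 and 144 bases before it in Ube2b. The other window of Ube2b, not shown, held no core. Of the 12 called genes, 8 had a window in the table: the 4 shown and Ube2l6, Uchl1, Ube2d2b and Psmd13. The core stood in 2 of these 8, Fbxo36 and Ube2b, a share no higher than the 28.2% of all genes with a window. Among the tested ubiquitin-proteasome genes with a window, 17 of 114 held the core (14.9%), against 28.2% of all 27025 genes with a window. The 27025 genes, the base of each such share here, were not limited to genes tested on the array, so the sets are unlike. The GC box GGGCGG stood in 66.7% of the 114 genes, against 35.4% of all genes, and the CCAAT box in 29.8%, against 37.5%. For the proteasome genes, the core of the antioxidant response element, searched as TGACNNNGC on both strands, stood in 4 of 26 windowed genes (15.4%), against 11.5% of all genes, and in none of the 8 called genes with a window. These are counts of letters in a window of fixed length, motifs may overlap, and a match is not shown to be a bound site.

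The 19S regulatory particle recognises and unfolds marked proteins. Counted here as 19S were all Psmc and Psmd genes, including assembly chaperones such as Psmd9. Their probes had a median log2 ratio of 0.13, against 0.03 for all probes, and 30 of 44 lay above 0. That median stood at 0.15 and 0.31 on arrays 1 and 2 and between -0.02 and 0.07 on the other 4 arrays, and without array 2 it exceeded that of all probes by 0.03, against 0.10 with all arrays. Of the 44 probes, 2 were called (4.55%, against 5.49% of all probes). Both lay above 0, where 1.96% of all probes were called. An unadjusted p under 0.05 was found for 7 of the 44 (15.9%, against 27.6% of all).

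Psmc5, an ATPase of the ring that unfolds the substrate, had ratios of 0.30, 0.59, 0.62, 0.07, 0.75 and 0.68 on arrays 1 to 6. Array 4 was the lowest and close to 0, and the other 5 were at least 0.30. The mean was 0.50 ± 0.26 (SD, n = 6), a fold of 1.42 (adjusted p = 0.0472, limma). The second Psmc5 probe gave 0.40, 0.92, -0.46, -0.15, -0.29 and 0.11, with 3 arrays on each side of 0 and a mean of 0.09 (adjusted p = 0.788, limma), so the 2 probes of Psmc5 gave different pictures. Of the other ATPases, the 2 probes of Psmc2 averaged 0.57 and 0.16, the Psmc3 probe 0.26, and the 3 probes of Psmc6 0.30, 0.02 and -0.07; none of these passed the test. In all, 7 of the 8 ATPase probes had a mean above 0.

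Psmd13, a subunit of the lid of the 19S particle, was the member of the proteasome whose 2 probes came closest to each other. Its called probe gave 0.33, 0.37, 0.46, 0.11, 0.35 and 0.33, with array 4 lowest and the other 5 between 0.33 and 0.46. The mean was 0.33 ± 0.12 (SD, n = 6), a fold of 1.25 (adjusted p = 0.0476, limma). The second probe averaged 0.35 with 6 of 6 arrays above 0, but array 2 stood alone at 1.06 against 0.03 to 0.40 on the others, and it did not pass (adjusted p = 0.161, limma). Other non-ATPase subunits were chosen for mention after their values were seen. Psmd4, a receptor for ubiquitin chains, had 6 of 6 arrays above 0 and a mean of 0.46 ± 0.36 (SD, n = 6) without passing (adjusted p = 0.0941, limma). Psmd14, the deubiquitinase of the lid, averaged -0.14 and -0.16 on 2 probes with 6 arrays and 0.40 on a probe with 4 arrays that ran from -2.03 to 1.79. The 8 probes of Psmd12 averaged between -0.13 and 0.28, 5 above 0 and 3 under it. The 5 probes of Psmd9, an assembly chaperone of the base, averaged between -0.24 and 0.33.

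No 20S subunit was called by limma after median centring, and 2 of 12 probes had an unadjusted p under 0.05 (16.7%, against 27.6% of all probes). With scale normalization 1 alpha probe was called under 0, as were 1191 of all 21247 probes. With quantile normalization 1 beta probe was called above 0, as were 1298 of all. The 20S beta subunits that do the cutting stayed near the median of the array: Psmb5, the chymotrypsin-like site, gave 0.05, 0.09, -0.11, -0.03, 0.00 and -0.01, all within 0.11 of 0, with a mean of -0.002 and a 95% interval from -0.15 to 0.14. The 3 probes of Psmb7, the trypsin-like site, averaged 0.12, 0.03 and 0.25. Psmb9, the subunit that replaces a standard one in the immunoproteasome, had 5 of 6 arrays under 0 and a mean of -0.26 ± 0.30 (SD, n = 6) (adjusted p = 0.206, limma). Psmb11, known from the thymus, averaged 0.04, and the 2 probes of Psmb3 0.19 and 0.14.

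Among the alpha subunits, which form the gate of the barrel, Psma8, known from the testis, gave -0.19, -0.33, -0.40, -0.12, -0.24 and -0.41. All 6 arrays lay under 0, between -0.41 and -0.12, with a mean of -0.28 ± 0.12 (SD, n = 6) that missed the threshold (adjusted p = 0.0634, limma). Psma2 had 1 probe at 0.05 and another at -0.58, and the second rests on array 4 at -4.59, since its other 5 arrays lay between 0.06 and 0.59. Psma3 averaged -0.04. Of the 9 probes of activators and chaperones none was called by limma after median centring, and 2 had an unadjusted p under 0.05 (22.2%, against 27.6% of all). With scale normalization 1 of them was called under 0, as were 1191 of all 21247 probes. Psmg2, which helps to assemble the alpha ring, gave -0.41, -0.17, -0.70, -0.25, -0.35 and -0.29. All 6 arrays were under 0, array 3 the lowest, and the mean of -0.36 ± 0.18 (SD, n = 6) did not pass (adjusted p = 0.0597, limma). Psme1 and Psme2, the subunits of the PA28 activator, averaged -0.05 and -0.17 on 2 probes and -0.02 on 1. Psmb6, Psmb8 and Psmb10 were not analysed here.

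**Figure D2:**
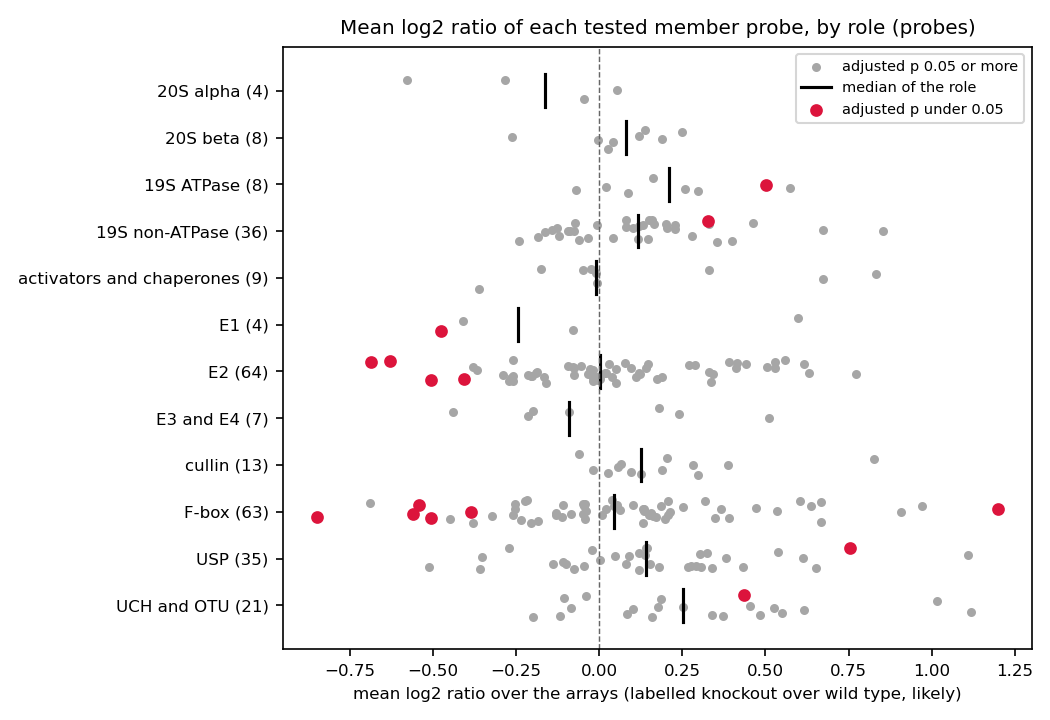
Mean log2 ratio of each of the 272 tested probes, by the role of its gene (number of probes in brackets), with the median of the role as a black bar and called probes in red. With each array centred on its median, called probes lie under 0 among E1 and E2 enzymes and mostly under 0 among F-box proteins, but without the centring 2 E2 and 3 F-box probes are called above 0. Of all 21247 tested probes, 849 are called above 0 without the centring and 416 with it. The Usp, Uch and Otu deubiquitinases and the 19S ATPases have their medians furthest above 0.

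After median centring, the called probes of E1 and E2 enzymes all lay under 0: 1 of 4 E1 probes and 4 of 64 E2 probes (6.25%, against 3.53% of all probes under 0 and 5.49% in either direction). Without centring or with quantile normalization, 2 or 1 E2 probes were called above 0 and 4 or 3 under 0. In both of these settings 1 E1 probe was called under 0 and 0 above. Over all 21247 probes, 849 or 1298 were called above 0 and 409 or 491 under 0. Uba6, an E1 that activates both ubiquitin and the ubiquitin-like protein FAT10, gave -0.32, -0.34, -0.59, -0.26, -0.65 and -0.69 on its called probe. Arrays 3, 5 and 6 were the lowest, and none came within 0.26 of 0. The mean was -0.47 ± 0.19 (SD, n = 6), lower by a fold of 1.39 in the RNA labelled knockout (adjusted p = 0.0373, limma). The second Uba6 probe gave -0.18, -0.65, -0.27, -0.23, -0.59 and -0.52, also under 0 on every array, with a mean of -0.41 ± 0.20 (SD, n = 6) just outside the threshold (adjusted p = 0.0513, limma). Both probes of Uba6 thus lay under 0 on 6 of 6 arrays. Uba3, part of the E1 of NEDD8, averaged -0.08, and Uba7, the E1 of ISG15, 0.60 on 5 arrays, all above 0 (adjusted p = 0.0943, limma). Ube2z, which takes FAT10 from Uba6, averaged 0.56 with arrays 1 and 2 under 0 and arrays 3 to 6 between 0.42 and 1.20 (adjusted p = 0.169, limma). Uba1 was not analysed here.

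Ube2b, the mammalian homolog of yeast Rad6 that ubiquitinates histone H2B and takes part in DNA damage tolerance, had 2 called probes of 4. The first gave -0.47, -0.87, -0.84, -0.38, -0.71 and -0.50, with a mean of -0.63 ± 0.21 (SD, n = 6) and a fold of 1.55 (adjusted p = 0.0292, limma). The second gave -0.36, -0.37, -0.70, -0.36, -0.72 and -0.54, with a mean of -0.51 ± 0.17 (SD, n = 6) and a fold of 1.42 (adjusted p = 0.0317, limma). On both probes arrays 3 and 5 were among the 3 lowest. A further probe averaged -0.19 (adjusted p = 0.174, limma) with array 2 above 0. The last averaged 0.53 and is carried by array 6 at 2.18, against -0.09 to 0.69 on the other arrays (adjusted p = 0.295, limma). The probes of Ube2b therefore did not all point one way.

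The other called E2 probes belong to Ube2d2b and Ube2l6. Ube2d2b, of a family of E2 enzymes used by many ligases, gave -0.53, -1.18, -0.65, -0.24, -0.85 and -0.67. Array 2 was lowest and array 4 highest, and the mean was -0.69 ± 0.31 (SD, n = 6), a fold of 1.61 (adjusted p = 0.0363, limma). Its paralogs are near-identical in sequence and could share the probe, so the gene is uncertain, and the probes of Ube2d2a, Ube2d3 and Ube2d-ps averaged from -0.38 to 0.62 with none called. Ube2l6, the E2 that passes ISG15 to its targets, gave -0.30, -0.23, -0.43, -0.37, -0.58 and -0.52, with arrays 5 and 6 the lowest, and averaged -0.41 ± 0.13 (SD, n = 6), a fold of 1.32 (adjusted p = 0.0371, limma). Its second probe averaged -0.26 with array 2 at 0.13 and the other 5 between -0.41 and -0.25 (adjusted p = 0.127, limma). For the ISG15 route as a whole, the E1 Uba7 lay above 0 without passing, the E2 Ube2l6 had 1 called probe under 0, and the protease Usp18 had too few arrays for a test.

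Among E2 enzymes that were not called, Ube2c, which starts ubiquitin chains for the anaphase-promoting complex, gave 0.20, -0.19, 0.32, -0.06, 0.21 and 0.24 with 2 of 6 arrays under 0 and a mean of 0.12 (adjusted p = 0.415, limma). Ube2s, which lengthens those chains, averaged 0.33, 0.05 and 0.08. The probes of Ube2w and Ube2q1, chosen after their values were seen, all lay under 0: Ube2w, which marks the amino terminus of proteins, averaged -0.37, -0.26 and -0.20, with a smallest adjusted p of 0.0642 (limma), and Ube2q1 -0.26 and -0.17, with a smallest adjusted p of 0.0626 (limma). The median of the 64 E2 probes was 0.00 and 33 of them lay above 0, so the called probes did not go with a shift of the family.

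Among the ligases named Ube3 or Ube4, none of 7 probes was called by limma after median centring, and 3 had an unadjusted p under 0.05 (42.9%, against 27.6% of all). With scale normalization 1 of them was called under 0, as were 1191 of all 21247 probes. Ube3a, the ligase whose maternal loss causes Angelman syndrome, averaged -0.44, -0.21, -0.20 and -0.09 on 4 probes. The first of these lay under 0 on 6 of 6 arrays, from -0.86 to -0.17, and missed the threshold (adjusted p = 0.0737, limma). Ube4b, which extends chains begun by other ligases, averaged 0.18 on 1 probe and 0.24 on another that ran from -1.61 to 3.44. The probe labelled Ube4bos3 cannot be told apart from its sense gene without the strand of the probes, which the sources used here do not state.

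Cullins, the ligase scaffolds, had 11 of 13 probes above 0 and a median of 0.13, against 0.03 for all probes. None was called by limma after median centring, and 3 had an unadjusted p under 0.05 (23.1%, against 27.6% of all). Without centring 1 cullin probe was called above 0, as were 849 of all 21247 probes. With quantile normalization 1 was called above 0 too, as were 1298 of all. Cul2, the scaffold of the ligase that holds the von Hippel-Lindau protein, gave 0.73, 0.04, 0.50, 0.28, 0.25 and 0.54, all above 0, with a mean of 0.39 ± 0.24 (SD, n = 6) (adjusted p = 0.073, limma). Its other probe was above 0 on 5 arrays, with array 3 alone at -0.36, and averaged 0.30. Cul4a averaged between 0.10 and 0.28 on 3 probes, Cul4b 0.20 on 5 arrays that were all above 0, and the 4 probes of Cul5 between -0.02 and 0.83. Without array 2 the cullin median exceeded that of all probes by 0.04, against 0.10 with it. Cul1 was not analysed here.

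F-box proteins held 6 of the 15 called probes, on 4 genes: 5 of 63 probes under 0 (7.94%, against 3.53% of all probes) and 1 above 0 (1.59%, against 1.96%). That split moved with the scaling: without centring 3 F-box probes were called under 0 and 3 above, and with quantile normalization 5 under and 3 above. The calls over all 21247 probes moved as well. They were 409 under 0 and 849 above without centring, and 491 and 1298 with quantile normalization. The 5 probes called under 0 after centring came from 3 genes, 3 of them from Fbxo8. Fbxo8, which carries an F-box beside a Sec7 domain of the kind that activates Arf GTPases, gave -0.48, -0.54, -0.68, -0.36, -0.65 and -0.54 on its tightest probe, with a mean of -0.54 ± 0.12 (SD, n = 6) and a fold of 1.46 (adjusted p = 0.024, limma). A second probe gave -0.27, -1.04, -0.42, -0.44, -0.57 and -0.62, with array 2 the lowest, and averaged -0.56 ± 0.27 (SD, n = 6) (adjusted p = 0.0415, limma). Another gave -0.30, -0.39, -0.74, -0.34, -0.66 and -0.59 and averaged -0.51 ± 0.18 (SD, n = 6) (adjusted p = 0.0344, limma). On the first and last of these arrays 3 and 5 were the lowest. The other 4 probes of Fbxo8 averaged -0.23, 0.02, 0.06 and 0.91, none called, and the last of them lay above 0 on 6 of 6 arrays, from 0.15 to 1.97 (adjusted p = 0.0746, limma). The sources used here do not place the probes on the transcript, so the 7 probes cannot be ordered along the gene.

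Fbxo36, an F-box protein with no well-known substrate, had the lowest mean of all 272 probes. Its called probe gave -0.80, -1.27, -0.53, -0.71, -0.70 and -1.08, arrays 2 and 6 at -1.27 and -1.08 and the other 4 between -0.80 and -0.53. The mean was -0.85 ± 0.27 (SD, n = 6), a fold of 1.8 (adjusted p = 0.0247, limma). Its other 3 probes averaged 0.13, -0.22 and -0.32 and were not called, the last with array 6 at -2.40. Fbxo3, an F-box protein studied in inflammation, gave -0.23, -0.53, -0.48, -0.24, -0.52 and -0.32, a mean of -0.39 ± 0.14 (SD, n = 6) and a fold of 1.31 (adjusted p = 0.0415, limma). Another Fbxo3 probe averaged -0.38, under 0 on 6 of 6 arrays (adjusted p = 0.0844, limma), while 2 more averaged 0.21 and 0.21.

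Fbxo43, the Emi2 protein that holds back the anaphase-promoting complex in meiosis, had the highest mean of all 272 probes. Its single probe gave 0.70, 1.46, 0.32, 1.18, 2.39 and 1.15, with array 5 highest and array 3 lowest. The mean was 1.20 ± 0.71 (SD, n = 6), a fold of 2.29 (adjusted p = 0.0469, limma). Of its 6 values, 50% were quotients of whole numbers up to 20, a form that ratios of small whole-number intensities take. The related Fbxo5, or Emi1, which acts in dividing body cells, averaged 0.18 and -0.20 on 2 probes. Fbxw7, which brings cyclin E, Myc and Notch to the proteasome, gave 0.29, 0.41, 0.05, 0.06, 0.11 and -0.11 with 5 of 6 arrays above 0 and a mean of 0.14 (adjusted p = 0.341, limma; 95% interval from -0.07 to 0.34).

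**Figure D3:**
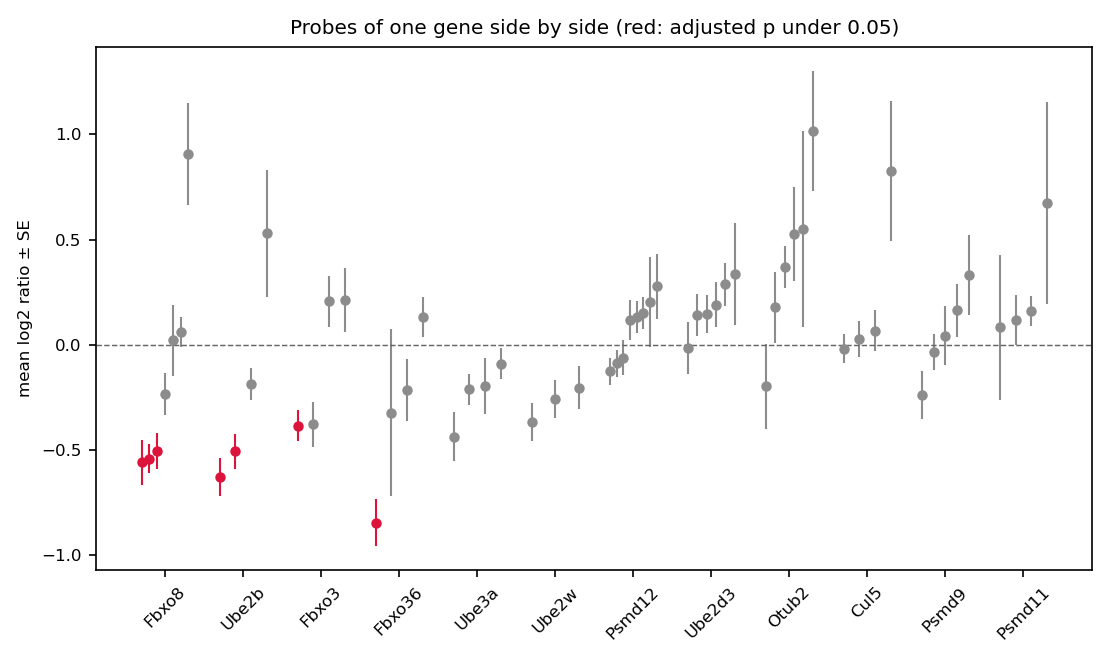
Mean log2 ratio and limma standard error of every tested probe for 12 genes with 3 to 8 probes, sorted within each gene, with called probes in red. Fbxo8, Ube2b, Fbxo3 and Fbxo36 have called probes under 0 beside probes above 0. The 4 probes of Ube3a and the 3 of Ube2w all lie under 0 with none called.

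Probes of 1 gene often disagreed. Of the 70 genes with at least 2 tested probes, 31 had all probes on the same side of 0 (44.3%), 20 above and 11 under, and the median gap between the highest and the lowest probe of a gene was 0.35. Among the 12 called genes, 10 had more than 1 probe: none of the 10 had every probe called, 5 had a probe on the other side of 0, and 2, Ube2b and Fbxo8, had more than 1 called probe. When the probes of a gene were averaged first, 2 of the 142 genes were called above 0 and 2 under 0. Among all 10818 genes tested, 255 were called above 0 and 375 under 0 in that way. Psmd13, Psmc5, Uba6, Ube2l6 and Uchl1 were the called genes of several probes with all of them on 1 side.

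Deubiquitinases, here all Usp, Uch and Otu genes by symbol, including Usp39, which lacks protease activity, had 41 of 56 probes above 0 (73.2%, against 53.7% of all probes). Their median was 0.17, against 0.03. Their medians on arrays 1 to 6 were 0.12, 0.24, 0.09, 0.17, 0.09 and 0.08, above 0 on every array. Probes whose values were mostly quotients of whole numbers made up 21.4% of them, against 12.0% of all probes, and without such probes the median was 0.12, against 0.01. The median exceeded that of all probes by 0.14 to 0.15 under the other centring settings tried and by 0.14 to 0.17 without any 1 array. Only 2 of the 56 were called (3.57%, against 5.49% of all probes), both above 0, where 1.96% of all probes were called. An unadjusted p under 0.05 was found for 18 (32.1%, against 27.6% of all). Above 0, 7 were called without centring and 9 with quantile normalization, where the ratios of all probes also lay higher. With scale normalization 3 were called above 0 and 1 under 0, against 595 and 1191 of all probes. Of all 21247 probes, 416 were called above 0 after centring, 849 without it and 1298 with quantile normalization. These values describe the list, which was not tested as a whole.

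Uchl1, abundant in neurons and endocrine cells, where it serves as a marker, gave 0.14, 0.72, 0.44, 0.29, 0.56 and 0.48 on its called probe. All 6 arrays were above 0, array 1 the lowest and array 2 the highest. The mean was 0.44 ± 0.20 (SD, n = 6), a fold of 1.35 (adjusted p = 0.046, limma). The second probe gave 0.15, 0.13, 0.44, 0.19, 0.09 and 0.11, again above 0 on 6 of 6 arrays, with array 3 apart at 0.44, and averaged 0.19 (adjusted p = 0.159, limma). Neuron markers had 4 of 9 probes called (44.4%, against 5.49% of all probes). Tubb3 had 1 called probe above 0 (0.39) beside 2 uncalled (0.34 and -0.05), and Elavl4 had 1 above 0 (0.90) beside 3 uncalled (-0.02, 0.52 and 0.65). Both probes of Ncam1 were called under 0 (-0.38 and -0.44). Of the endocrine markers, 2 of 3 probes of the insulin gene Ins2 were called above 0 (0.52 and 0.54, beside 0.68) and 1 of 2 probes of Neurog3, the factor that starts endocrine differentiation, under 0 (-0.73, beside -0.32). None of the 3 probes of the glucagon gene Gcg was called by limma (0.27, 0.00 and -0.03; smallest adjusted p = 0.194). The part of these cells in the value of Uchl1 was not tested.

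Usp39, a spliceosome component without protease activity that its symbol places among the deubiquitinases here, had the other called probe. It was measured on 5 arrays, at 1.17, 0.62, 0.57, 0.41 and 0.99 on arrays 1, 2, 3, 4 and 6, all above 0. The mean was 0.75 ± 0.32 (SD, n = 5), a fold of 1.69 (adjusted p = 0.042, limma). Its other probes averaged 1.11, from -0.07 to 2.62, and -0.02, from -0.83 to 0.65, and neither passed. The 2 deubiquitinases that bind the proteasome itself, chosen after their values were seen, were not called: Usp14 averaged -0.35 (under 0 on 6 of 6 arrays, adjusted p = 0.093, limma) and -0.51, with arrays 3 and 6 at -1.82 and -2.31, and Uchl5 0.10, 0.08 and -0.08. Otud5 had probes at 0.61 and 0.45, each above 0 on 6 of 6 arrays and short of the threshold (adjusted p = 0.0593 and 0.0628, limma), beside 2 at 0.16 and -0.04. The 6 probes of Otub2 averaged between -0.20 and 1.02, 5 of them above 0.

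Across all 272 probes the median of the mean ratio was 0.08, against 0.03 for all probes, and 164 of them lay above 0 (60.3%, against 53.7%). On single arrays the median was 0.12 and 0.14 on arrays 1 and 2, and 0.03, -0.01, 0.00 and -0.01 on arrays 3 to 6. Probes with a mean of 0.5 or more numbered 34, of which 16 had mostly quotients of whole numbers (47.1%) and 3 were called. Probes with a mean of -0.5 or less numbered 10, of which 1 had mostly such quotients and 7 were called. The same counts by size were not made over all probes, so this difference between the sides cannot be read as particular to these genes. The median standard error was 0.11, and for 152 probes (55.9%) the 95% interval lay within 0.5 of 0 on both sides. For the others the interval reached past 0.5 in size, so these arrays do not bound the difference to that size.

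**Figure D4:**
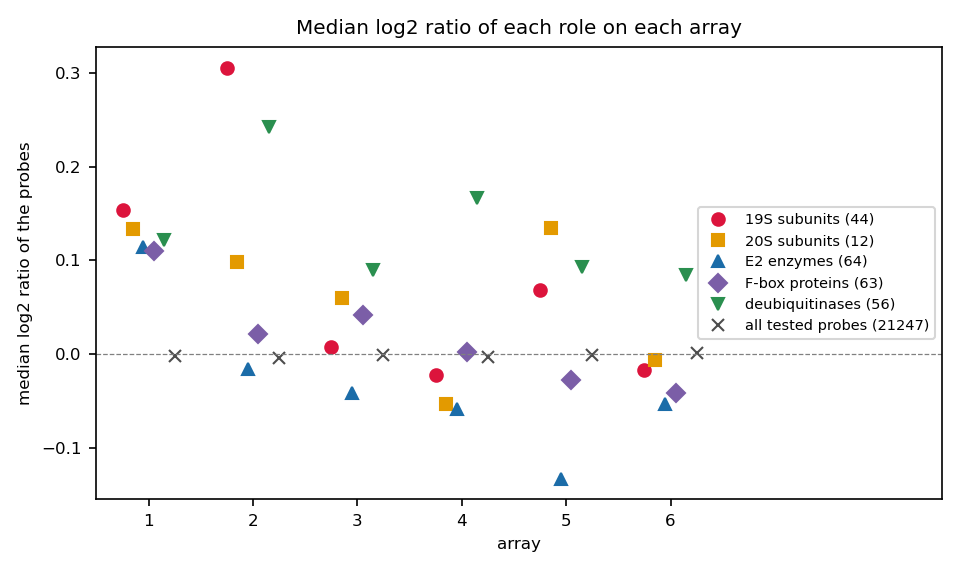
Median log2 ratio of the probes of 5 roles and of all tested probes on each of the 6 arrays (points set side by side within an array, number of probes in brackets). The 19S median stands at 0.15 and 0.31 on arrays 1 and 2 and near 0 on arrays 3, 4 and 6. The deubiquitinase median is above 0 on every array, and all probes lie at 0 by the centring.

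Arrays 1 and 2 differ from arrays 3 to 6 in what their labels say of pooling and amplification. Across the 272 probes, the rank correlation between arrays 1 and 2 was 0.52, within arrays 3 to 6 it ranged from 0.3 to 0.52, and between the sets from 0.05 to 0.4, as a description across probes, which share arrays and are not independent. In limma's test of the difference between arrays 1 and 2 and arrays 3 to 6, 0 of the 271 testable probes of these genes passed, and 0.0% of all 21230 (smallest adjusted p = 0.212). At an unadjusted p under 0.05 there were 34 of 271 (12.5%), against 15.4% of all. With arrays 3 to 6 alone limma called none of the 272 probes and 0.0518% of all, and 75 (27.6%, against 30.1% of all) had an unadjusted p under 0.05. With arrays 1 and 2 alone it called none of the 261 with values and 0.0% of all, and 34 (13.0%, against 14.4% of all) had an unadjusted p under 0.05.

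Other genes of the pathway were read from lists by function. Of the anaphase-promoting complex, a ligase that starts the exit from mitosis, 2 of 24 probes were called (8.33%, against 5.49% of all probes). Both lay above 0, where 1.96% of all probes were called. In all, 19 of the 24 lay above 0, with a median of 0.16. The called probes were those of its subunits Anapc4 (0.60 ± 0.11, SD, n = 6, adjusted p = 0.0206, limma) and Anapc5 (0.43 ± 0.17, SD, n = 6, adjusted p = 0.0395, limma). The other Anapc4 probe averaged 0.28 and the other 3 of Anapc5 between 0.13 and 0.29, with none called. Of 52 probes for NEDD8 and cullin partners, 1 was called, above 0 (1.92%, against 1.96% of all probes), for Elob, the elongin B adaptor of Cul2 and Cul5 ligases (0.51 ± 0.28, SD, n = 6, adjusted p = 0.0498, limma), whose other 8 probes averaged between -0.18 and 0.38. Of 13 probes for shuttles and proteasome partners, 1 was called, under 0 (7.69%, against 3.53% of all probes under 0 and 5.49% in either direction). It was a probe of Pomp, the proteasome maturation protein (-0.43 ± 0.21, SD, n = 6, adjusted p = 0.0476, limma). The other 4 Pomp probes averaged between -0.07 and 0.15. None of 26 probes of HECT and RING ligases and none of 21 of the SUMO pathway was called (limma), while 4 (15.4%) and 5 (23.8%) had an unadjusted p under 0.05, against 27.6% of all probes.

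The 2 probes of Sox4, the targeted gene, gave -0.15, 0.41, -0.35, 0.01, -0.01 and -0.06, and -0.06, -0.03, -0.35, -0.01, -0.10 and 0.00, on arrays 1 to 6, on both sides of 0. Their means were -0.03 and -0.09, and neither passed (adjusted p = 0.892 and 0.446, limma). They do not check the labels, because the sources used here do not place them relative to the deleted part. A ratio gives no level, so whether the tissue is pancreas could not be judged from its markers, all 6 of which had tested probes (6 of 15 probes called, 40.0%, against 5.49% of all probes, 2 above 0 and 4 under it). Liver markers had 7 of 11 probes called (63.6%, against 5.49% of all probes), all under 0, with a median of -0.92 and array medians from -1.20 to -0.60. Called probes numbered 1 of 50 for red cells (2.0%, above 0), 1 of 7 for mesenchyme (14.3%, under 0) and 2 of 2 for leukocytes (1 on each side), against the same 5.49%. The part of such cells in the values of the ubiquitin-proteasome genes was not tested.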

How the data were processed

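Per the labels, RNA from the e12.5 pancreas of Sox4-/- embryos and wild-type littermates was set against each other on 6 spotted arrays. The authors' deposited table gives log2 ratios, 1 per probe and array. The sources used here do not give scanning, normalization, dyes or direction, and signal over background is unknown. The number of arrays limits the precision, and so does the number of pools, which may be 1 per genotype. Array medians as deposited ran from -0.007 to 0.198. Values at the ceiling, log2 of 100000, were set to missing (40 to 257 an array), beside 439 to 1654 empty ones.

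The median of each array was subtracted, and 21247 of 21888 probes with at least 4 values entered an intercept-only fit in limma 3.58.1 (lmFit, eBayes; R 4.3.3). Tests were two-sided, p-values were adjusted over all these probes (Benjamini-Hochberg), and the threshold was 0.05. SD is over arrays, and SE and 95% intervals are limma's. The fit was tested on simulated data. Figures used matplotlib 3.10.9.

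Names come from the platform annotation, where 18388 probes had 1 symbol, 66 several and 3434 none. Of the 18388, 17786 were updated by Entrez ID through a RefSeq table (GRCm38.p6), among them all 279 probes described. Probes of a gene were reported apart.

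Members and lists were chosen with earlier results of these data known. Named genes were those past the threshold, up to 6 per role and direction, or the one with the smallest p where a role had none; Psmb5 to Psmb10, Uba1, Ube2c, Cul1, Cul3, Fbxw7, Uchl1 and Usp18 where measured; up to 3 called genes of each other list; and Sox4. The lists were neddylation and cullin partners, the anaphase-promoting complex, HECT and RING ligases, shuttles and proteasome partners, the SUMO pathway, and markers of liver, red cells, mesenchyme, endothelium (no tested probe), leukocytes, neurons and pancreas. Other genes were named after their values were seen, and some items of the rule and lists are not reported here.

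Alternatives were values without centring, scale and quantile normalization, the other missing-value filters, the ceiling kept, robust eBayes, array weights, testing against a log2 change of 0.2, 1 mean per gene, subsets of arrays, the array set as a term, probes left out when most of their ratios were quotients of whole numbers up to 20, and each array left out. Centring within source plates, and other centring for the difference between array sets, were added after seeing the data.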

Additional observations from a re-analysis of the deposited data

Results flagged for a closer look

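In 5 of the 67 sets of values checked, 1 array stood further from the other arrays than expected for a single sample, and chance alone gives about 1 in 20. On the second Psmd13 probe, array 2 was at 1.06, against 0.03 to 0.40 on the others. The Ube2b probe above 0 had array 6 at 2.18, against -0.09 to 0.69. For the second Ube2l6 probe, array 2 was at 0.13, against -0.41 to -0.25. The second Uchl1 probe had array 3 at 0.44, against 0.09 to 0.19. On a Cul2 probe, array 3 was at -0.36, against 0.28 to 0.63. None of these 5 probes had passed the adjusted p of 0.05 in limma.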

How the results depend on the processing

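For these genes, 5 probes were called above 0 and 10 under 0. Above 0, the count was 15 without centring, 18 with quantile normalization, 10 with array weights, 9 with all 6 arrays measured, 8 without probes of mostly whole-number ratios, 3 with the ceiling kept or robust eBayes, and 2 by gene means. Under 0, it was 16 with scale normalization, with all 6 arrays measured or without probes of mostly whole-number ratios, 23 with array weights, and 2 by gene means. Both counts were 0 with arrays 1 and 2 alone, with arrays 3 to 6 alone and in a test against a log2 change of 0.2. Leaving out 1 array gave 0 to 2 above 0 and 0 to 10 under 0.

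Over all probes, 416 were called above 0 and 750 under 0. Above 0, there were 659 with the array set as a term, 1028 with array weights, 849 without centring, 1298 with quantile normalization, 255 by gene means, 9 in the test against 0.2, 0 with arrays 1 and 2 alone and 1 with arrays 3 to 6 alone. Under 0, there were 1724, 409, 491, 375, 28, 0 and 10 with array weights, no centring, quantile normalization, gene means, the test against 0.2, arrays 1 and 2 alone and arrays 3 to 6 alone, and 1191 with scale normalization. Leaving out 1 array gave 2 to 269 above 0 and 6 to 580 under 0. Some of these settings used fewer arrays or fewer tests, and the cause of the changes in the counts was not tested.

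The median of the genes' probes, 0.08, was 0.19 without centring and 0.19 with quantile normalization, where the median of all probes was 0.13, and it exceeded that of all probes under each alternative of that kind, by 0.02 to 0.12. The proteasome median, 0.09, was 0.21 with quantile normalization, 0.19 without centring, 0.20 with arrays 1 and 2 alone, 0.03 with array weights and 0.00 with arrays 3 to 6 alone, where all probes had 0.02. Leaving out 1 array gave 0.05 (without array 2) to 0.12. The difference between array sets gave 0 calls under each centring tried. For the 15 called probes, 9 of the 90 values without 1 array kept the call and 81 lost it. Under the other alternatives 150 of 209 values kept it and 59 lost it. None turned. For the other named probes, outside the fits without an array, 25 of 472 passed and 19 had the other sign without passing.

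Each ratio already pairs both RNAs of 1 array, so the fit on ratios is itself the paired analysis. The number of arrays limits all values, and signal over background is unknown.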
